A study of Homo sapiens with 32 samples.

Results

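The comparison described here asks how much an ATPase-competent SMARCA4 changes gene expression in A549 cells that still have SMARCA2. It uses the 4 A549 arrays with the control hairpin, out of 32 arrays in the series. They were chosen by their labels alone: 2 arrays carry an ATPase-competent SMARCA4 cDNA and 2 carry none. A549 is a human lung adenocarcinoma cell line known to lack functional SMARCA4. All 8 A549 lines were untreated stable lines with a short hairpin RNA (shRNA), either shLuc, aimed at luciferase as a control, or S2sh7, aimed at the part of SMARCA2 that encodes the ATPase domain. Each line also expressed GFP, wild-type SMARCA4 (WT), SMARCA4 with a mutated bromodomain (BRD) or SMARCA4 with a dead ATPase (ATPdead). WT and BRD are called competent below, and GFP and ATPdead inactive. There was 1 array per line, so the 2 arrays of a class are different constructs and not repeats of 1 line, and their spread includes any difference between the constructs. The promoter of the cDNAs, and whether a line is 1 clone or a pool, are not stated in the labels; a p-value here therefore reads the spread between these arrays and nothing wider. The 8 A549 arrays carry the same batch label.

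SMARCA4 (also BRG1) and SMARCA2 (BRM) are the alternative motor subunits of the SWI/SNF, or BAF, chromatin remodelling complexes. A complex holds either of them, and the motor uses ATP to slide or evict nucleosomes, which opens promoters and enhancers. Both proteins also have a bromodomain, which binds acetylated lysines on histones. Cancer cells that have lost SMARCA4 are known to rely on SMARCA2.

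The labels were checked on both ATPase genes. Expression is given as log2 of the deposited intensity. A SMARCA4 probe set that the cDNAs raised read 4.56 with shLuc and GFP, 6.85 with ATPdead, 6.64 with WT and 6.91 with BRD. The 3 lines with a SMARCA4 cDNA thus lay well above the GFP line, and the ATPdead line stood among the other two, so the comparison of competent with inactive lines is not a comparison of SMARCA4 RNA present with absent. In the S2sh7 lines the same probe set read 4.97 with GFP, 7.24 with ATPdead, 7.88 with WT and 7.91 with BRD. The cDNA lines were therefore higher with S2sh7 by 0.87 on average. The excess was larger for WT and BRD than for ATPdead, and with S2sh7 both lay above ATPdead. The part of this in the results below was not tested. The probe set that stands for SMARCA4 in the comparison over all genes is another one, which read 5.76 to 5.86 on the 4 shLuc arrays, with no rise in the cDNA lines. Of 9 SMARCA4 probe sets on the array 7 were bright enough to be tested. Only the first of these showed the cDNAs; in the other 6 the cDNA lines with shLuc differed from the GFP line by -0.07 to 0.19 on average.

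SMARCA2 RNA was higher in the 4 shLuc lines than in the 4 S2sh7 lines on 4 of the 5 tested probe sets. A SMARCA2 probe set read 8.19 with GFP, 8.32 with ATPdead, 8.22 with WT and 8.23 with BRD, against 5.02 to 5.17 in the 4 S2sh7 lines. The brightest SMARCA2 probe set read 8.31, 8.42, 8.57 and 8.63 in the same order with shLuc, and 5.13 to 5.63 with S2sh7. On the second the competent lines lay above the inactive ones by 0.23 log2 (SE 0.145, adjusted p = 0.962), which is not a call. The exception, a dim probe set, read 5.34 to 5.41 with shLuc and differed by 0.0002 between the hairpins. SMARCA2 was thus reduced with S2sh7, and what remained near background could not be measured.

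**Figure D1:**
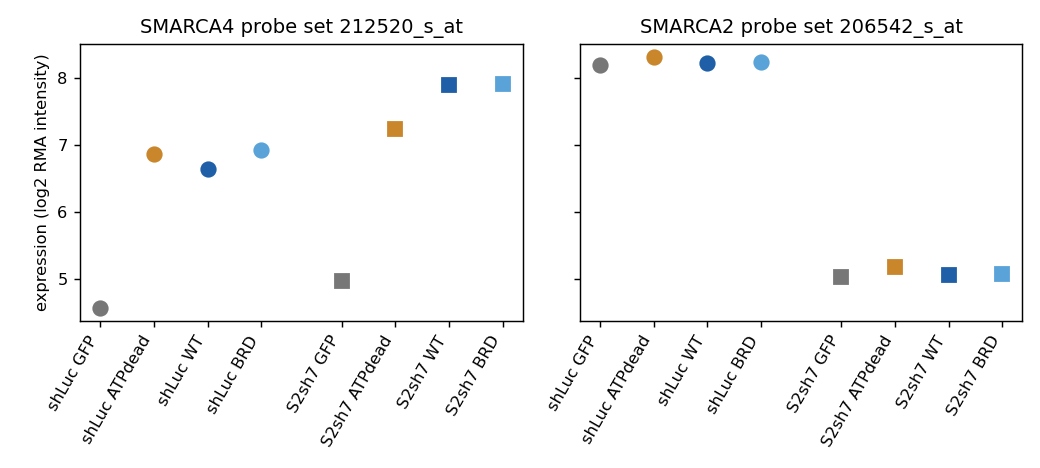
Expression of a SMARCA4 and a SMARCA2 probe set (log2 RMA intensity) on each of the 8 A549 arrays, 1 point per array, circles for shLuc and squares for S2sh7. SMARCA4 is lowest with GFP (4.56 and 4.97), and SMARCA2 drops from 8.19 to 8.32 with shLuc to 5.02 to 5.17 with S2sh7.

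The lines kept the profile of A549. The 8 genes used as its markers, among them the keratins KRT8 and KRT18 and the NRF2-driven enzymes AKR1B10 and NQO1, read 12.6 to 14.2 on the shLuc arrays, and their mean moved only from 13.41 to 13.47 between arrays. The 18 leukocyte and endothelial markers on the array averaged 4.86 to 4.89; 10 of them lay over log2 5 on average, among them CD14 (6.51 to 6.98), PECAM1 (6.28 to 6.56), CD79A (6.25 to 6.50), CD3E (5.91 to 6.24) and VWF (5.21 to 5.43), while PTPRC, LYZ, CDH5 and KDR lay under 4. The part of these readings in the results was not tested. Array medians were 40.1 to 41.2 intensity units over the 8 arrays, and the 3' minus 5' log2 difference of the ACTB control probe sets was 0.17 to 0.24.

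With SMARCA2 present, no gene was called. In limma 0 of 14695 genes differed between competent and inactive shLuc lines at an adjusted p under 0.05 (0%, in either direction). At an unadjusted p under 0.05 there were 746 genes (5.08%), 344 of them higher (2.34%) and 402 lower (2.74%) in the competent lines. The smallest adjusted p was 0.0562. Arrays of the 2 classes did not overlap for 5548 genes (37.8%), 2131 higher (14.5%) and 3417 lower (23.3%); the median difference over all genes was -0.014 log2. With 2 arrays against 2, an exact two-sided permutation test of a single gene cannot go below p = 0.333, so the calls rest on the spread that limma pools over genes and over the 8 A549 arrays.

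The differences were small as well as uncalled. The median absolute difference was 0.057 log2, the 99th percentile 0.30 and the largest, for the annexin gene ANXA10, 0.94. The 95% interval of a gene's difference uses the spread of both the shLuc and the S2sh7 arrays. It reached a median of 0.17 log2 to either side. For 14676 genes (99.9%) that interval lay wholly within 2-fold in both directions, and for 14430 (98.2%) within 1.5-fold. A change of 2-fold or more would thus have lain outside the interval of nearly every gene. Shifts smaller than the reach of the interval were not detectable with these arrays. The interval is not adjusted for the number of genes, so larger shifts could also stay uncalled. The gene TNFAIP6, at -0.92 log2 with an interval of -1.11 to -0.74, was not called.

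The same contrast in the lines depleted of SMARCA2 was larger. With S2sh7, 5693 genes were called (38.7%), 2619 higher (17.8%) and 3074 lower (20.9%) in the competent lines, and 691 of them changed at least 2-fold (4.7%). The median absolute difference was 0.17 log2 and the 99th percentile 1.82. The contrasts with shLuc and with S2sh7 share no array. The test of the difference between them, an interaction term in the same fit, called 3506 genes (23.9%): the competent minus inactive difference was more positive with S2sh7 for 1760 (12%) and more negative for 1746 (11.9%). Without the shLuc WT array the interaction called 2167 genes, and without the shLuc BRD array 2333. Of the 5693 genes called with S2sh7, 5357 (94.1%) had a shLuc 95% interval that left out the size of their S2sh7 difference. That share follows largely from the choice of called genes, and it leaves out the error of the S2sh7 difference. The interaction was called for 1731 (66.1%) of the 2619 higher genes and 1716 (55.8%) of the 3074 lower ones. These genes were chosen by the S2sh7 difference, which is part of the interaction. Across the 14695 genes the 2 differences had a Pearson r of 0.11 and a Spearman rho of 0.14, a description across genes, which are not independent replicates.

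**Figure D2:**
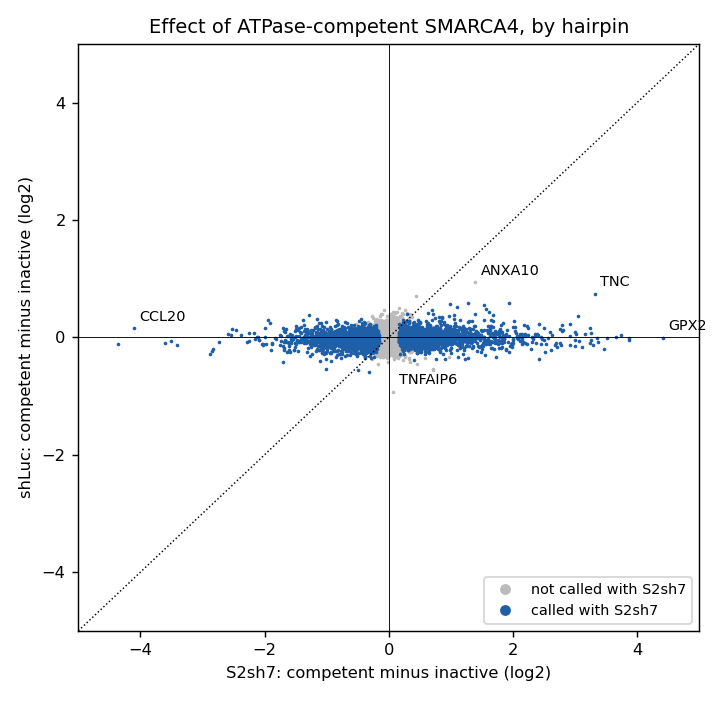
Competent minus inactive difference (log2) for each of 14695 genes, with S2sh7 on the x axis and with shLuc on the y axis at the same scale; blue points were called with S2sh7, grey points were not, and the dotted line marks equal differences. The points spread to beyond 4 along the x axis and stay within 0.94 of 0 along the y axis; ANXA10, TNC, TNFAIP6, GPX2 and CCL20 are labelled.

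Single arrays gave the same order of sizes, with no test since each line had 1 array. With shLuc, 66 genes differed at least 1.5-fold between ATPdead and GFP (0.449%), which are both inactive. Between classes there were 44 for WT against GFP (0.299%), 32 for BRD against GFP (0.218%), 26 for WT against ATPdead (0.177%) and 37 for BRD against ATPdead (0.252%). WT and BRD differed for 11 genes (0.0749%). The pair of inactive lines was thus further apart by this count than any of the 4 pairs that set a competent line against an inactive one. With S2sh7 the picture was different: 75 genes for ATPdead against GFP (0.51%) and 86 for BRD against WT (0.585%), but 1759 (12%) and 2009 (13.7%) for WT and BRD against GFP, and 1669 (11.4%) and 1847 (12.6%) against ATPdead. Between shLuc arrays the correlation across genes ran from 0.9972 to 0.9983; between S2sh7 arrays it was 0.997 within each class and 0.9697 to 0.9748 between classes.

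**Figure D3:**
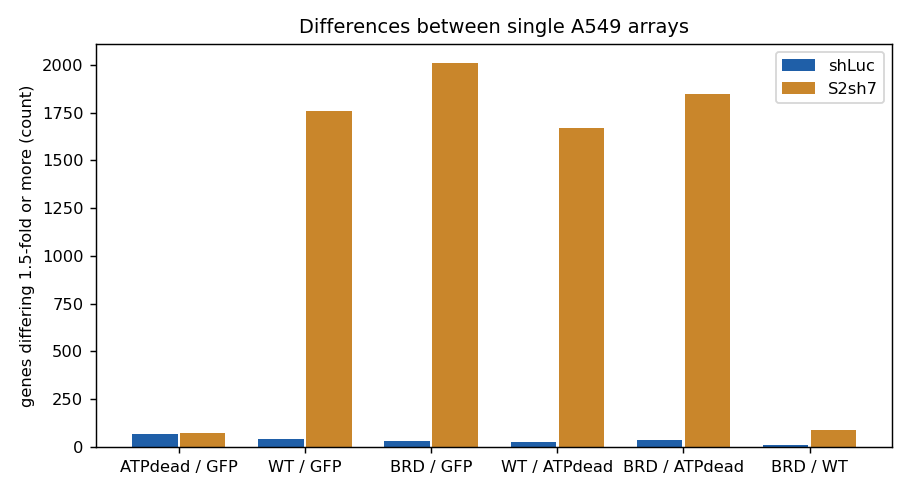
Number of genes, of 14695, that differ at least 1.5-fold between 2 single A549 arrays, for the 6 pairs of constructs with shLuc (blue) and with S2sh7 (orange). With shLuc the counts run from 11 to 66 and are highest for ATPdead against GFP; with S2sh7 the 4 pairs across classes reach 1669 to 2009.

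The constructs can also be paired so that no array is used for both differences. With shLuc, WT minus GFP and BRD minus ATPdead had a Pearson r of -0.011 across genes, and WT minus ATPdead and BRD minus GFP one of 0.11. With S2sh7, WT minus GFP and BRD minus ATPdead had r = 0.90. These are descriptions across genes of arrays that carry the same batch label.

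Where 1 of the shLuc lines stood apart it was the GFP or the ATPdead line. Only 12 genes spanned 2-fold or more from the lowest to the highest of the 4 arrays (0.0817%); those named in this paragraph were chosen after their values were seen. ANXA10 read 5.54 with GFP, 6.44 with ATPdead, 7.13 with WT and 6.73 with BRD; the competent lines were higher, but the 2 inactive lines lay further apart than ATPdead and WT. RNF128, an E3 ubiquitin ligase gene, read 7.44 with GFP and 6.17, 6.04 and 6.48 with ATPdead, WT and BRD, so the GFP line alone was high. HMGA2, which encodes an architectural chromatin protein, was the reverse, at 7.39 with GFP and 8.28 to 8.52 in the 3 lines with a SMARCA4 cDNA, active or not. SPARC, a matrix protein gene, was low only with ATPdead (4.22, against 4.90 to 5.33). The stress factor ATF3 was high with GFP at 8.23, and read 7.22 with ATPdead, 7.69 with WT and 7.48 with BRD. An array lay at least 1.5-fold beyond all 3 others for 12 genes with GFP, 9 with ATPdead and none with WT or BRD.

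TNFAIP6 came closest to a call. It encodes TSG-6, a secreted hyaluronan-binding protein that inflammatory cytokines induce. With shLuc it read 6.18 with GFP and 6.20 with ATPdead, and 5.15 with WT and 5.37 with BRD. Both competent lines lay below both inactive lines, by 0.92 log2 on average (difference -0.92, SE 0.081, unadjusted p = 3.82e-06, adjusted p = 0.0562). A second TNFAIP6 probe set gave -0.83. It passed the threshold when the probe sets of a gene were averaged (-0.88, adjusted p = 0.0297), when arrays were centred on their medians (-0.93, adjusted p = 0.0412) and with a trended, robust variance (adjusted p = 0.0345); under the other alternatives its adjusted p was 0.0547 to 0.677, and a stricter filter on dim genes left it out. With S2sh7 it read 4.22, 4.30, 4.37 and 4.31 in the order GFP, ATPdead, WT and BRD, below the level of 5 used as the filter, so little fall could have been seen there. The interaction, which includes the shLuc difference that picked out this gene, was 1.00 log2 (SE 0.11, adjusted p = 0.000809).

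EMP1 had differences of opposite sign under the 2 hairpins. It encodes a small tetraspan epithelial membrane protein. With shLuc it read 7.03 with GFP, 7.14 with ATPdead, 6.79 with WT and 6.72 with BRD, a difference of -0.33 (SE 0.064) that was not called (adjusted p = 0.962). With S2sh7 it read 4.20, 4.22, 5.91 and 5.97, and rose by 1.73 in the competent lines (adjusted p = 2.85e-06); the interaction was 2.06 (SE 0.091, adjusted p = 1.96e-05). The competent S2sh7 lines still lay below each shLuc line. These values are those of 1 probe set: with the mean of all EMP1 probe sets the shLuc difference was -0.13 and the interaction 0.50 (adjusted p = 0.00313).

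The promoters of TNFAIP6 and EMP1 are shown with that of GPX2, the gene with the largest rise in S2sh7 lines, because these genes stand for 3 patterns: the smallest p with shLuc, differences of opposite sign under the 2 hairpins, and a large rise with S2sh7 beside a shLuc difference near 0. Each is 300 bases of the RefSeq annotation of GRCh38.p14, from 250 before to 50 after the gene's start, read 5′ to 3′ on the gene's strand: chr2:151357342-151357641 (+), chr12:13196476-13196775 (+) and chr14:64942696-64942995 (-). Capitals mark TGANTCA, the AP-1 motif, in the first and second, and TGACNNNGC, the antioxidant response element that NRF2 binds, in the third, searched on both strands.
TNFAIP6: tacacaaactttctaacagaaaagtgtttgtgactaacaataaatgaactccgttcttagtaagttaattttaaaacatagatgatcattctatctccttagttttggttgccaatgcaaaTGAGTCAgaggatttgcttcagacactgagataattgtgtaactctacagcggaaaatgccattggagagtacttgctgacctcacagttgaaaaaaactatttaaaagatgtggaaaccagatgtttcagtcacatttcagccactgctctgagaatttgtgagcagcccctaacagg
EMP1: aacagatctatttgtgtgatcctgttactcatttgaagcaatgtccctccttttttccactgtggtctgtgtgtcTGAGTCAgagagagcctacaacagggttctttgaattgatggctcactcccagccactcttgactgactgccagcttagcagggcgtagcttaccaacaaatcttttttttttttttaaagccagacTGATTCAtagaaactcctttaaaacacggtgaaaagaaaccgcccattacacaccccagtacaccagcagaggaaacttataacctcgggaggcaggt
GPX2: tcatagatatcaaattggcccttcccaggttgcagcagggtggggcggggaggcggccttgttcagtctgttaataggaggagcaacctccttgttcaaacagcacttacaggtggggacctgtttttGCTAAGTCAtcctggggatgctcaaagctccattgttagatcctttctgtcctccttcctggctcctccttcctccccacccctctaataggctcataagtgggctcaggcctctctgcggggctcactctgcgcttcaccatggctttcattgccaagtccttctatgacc
The AP-1 motif starts 129 bases before the start of TNFAIP6 and 175 and 48 before that of EMP1, and the NRF2 motif 122 before that of GPX2. The AP-1 motif stood in 7.71% of the 35116 promoters in the table and the NRF2 motif in 13.3%; the 2 motifs share the letters TGA and can overlap. Of the 16 genes named next, 11 had a promoter in the table, and 3 of these (TNFAIP6, EMP1 and CPA4) held the AP-1 motif. Matches are letters in this window and no measurement of binding was made.

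The 16 genes are the 8 per direction with the smallest unadjusted p among those whose competent and inactive shLuc arrays did not overlap and which read over log2 6 on at least 2 of the 4 shLuc arrays, and their order describes the arrays that chose them. None was called. On the higher side the differences ran from 0.24 to 0.37 log2, and the genes were SCUBE3, ADHFE1, HAVCR2, CPA4, PACS2, GRIN2C, IL1B and SUN5. The cytokine gene IL1B read 6.30 with GFP, 6.24 with ATPdead, 6.69 with WT and 6.58 with BRD. HAVCR2, which encodes the immune receptor TIM-3, read 5.65, 5.89, 6.17 and 6.07. PACS2, which encodes a membrane trafficking protein, was the brightest of the 8, at 9.34, 9.40, 9.61 and 9.60, with the competent lines nearly equal. None of these 8 genes was called with S2sh7 either.

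On the lower side the other 6 genes were H2BC12L, MAP3K6, MVD, DEPDC7, NT5DC3 and KCTD12, with differences from -0.25 to -0.32. H2BC12L, a histone H2B gene, read 8.78 with GFP, 8.77 with ATPdead, 8.46 with WT and 8.44 with BRD. With S2sh7 it fell by 0.38 (adjusted p = 0.00275), and the interaction was -0.06 (adjusted p = 0.719). The kinase gene MAP3K6 read 6.72, 6.73, 6.48 and 6.47 with shLuc, and fell by 0.39 with S2sh7 (adjusted p = 0.000753; interaction -0.14, adjusted p = 0.224). DEPDC7 was at -0.31 with shLuc and fell by 0.30 with S2sh7, and NT5DC3 at -0.27 and by 0.27. These 4 genes thus had differences of one sign under both hairpins, called only with S2sh7, and no called interaction. MVD, a mevalonate pathway enzyme of cholesterol synthesis, read 6.65, 6.63, 6.30 and 6.41 with shLuc and 6.28 to 6.39 with S2sh7, and its interaction was 0.32 (adjusted p = 0.0362). KCTD12, an auxiliary subunit of GABA-B receptors, was at -0.29 with shLuc and rose by 0.25 with S2sh7 (interaction 0.54, adjusted p = 0.00682). Of the 16 genes 10 had further tested probe sets, 17 in all, and 10 of the 17 had the sign of the probe set used. With the mean of all probe sets the differences of SCUBE3, PACS2, GRIN2C and SUN5 dropped to 0.0087, 0.062, 0.11 and 0.094, and that of MAP3K6 was -0.14.

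**Figure D4:**
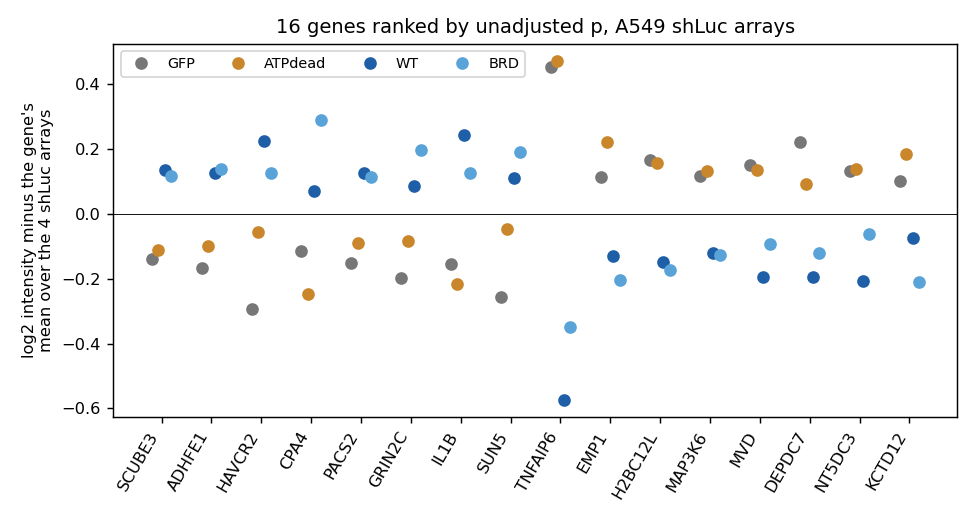
Expression on the 4 shLuc arrays (log2 intensity minus the gene's mean over these arrays) for the 16 genes with the smallest unadjusted p, 8 per direction, among genes over log2 6 on at least 2 of these arrays whose classes do not overlap, 1 point per array, grey GFP, orange ATPdead, dark blue WT and light blue BRD. TNFAIP6 stands out with -0.92 between classes; the other 15 genes lie between -0.33 and 0.37, and none was called.

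Several genes with large rises in the competent S2sh7 lines lay within narrow ranges over the 4 shLuc lines. Others ranged more widely, such as FXYD2, at 10.05 to 10.54. GPX2, a glutathione peroxidase and NRF2 target, read 12.68 with GFP, 12.64 with ATPdead, 12.63 with WT and 12.68 with BRD with shLuc, but 9.10, 8.10, 12.77 and 13.26 with S2sh7. Its difference was -0.0045 with shLuc and 4.41 with S2sh7 (SE 0.29, adjusted p = 2.49e-05). FOXA2, a transcription factor of endoderm and lung, read 7.99, 8.03, 7.87 and 7.88 with shLuc, and 4.96, 4.83, 7.81 and 7.82 with S2sh7. The competent S2sh7 lines stood at the shLuc level of FOXA2, and the interaction was 3.06 (SE 0.088, adjusted p = 5.92e-06). FN1, the fibronectin gene, read 13.03, 12.74, 12.88 and 12.87 with shLuc and 9.17, 8.30, 12.25 and 12.26 with S2sh7. TM4SF4, a tetraspan membrane protein, read 11.56 to 11.86 over the shLuc lines, INSL4, an insulin-like peptide, 10.67 to 10.85, and FGL1, a liver-secreted fibrinogen-like protein, 10.53 to 10.67. These 3 differed by -0.02, -0.04 and 0.04 with shLuc and rose by 3.88, 3.88 and 3.74 with S2sh7.

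Among the genes with the largest falls in S2sh7 lines, the 4 shLuc lines lay below the inactive S2sh7 lines. The chemokine gene CCL2 read 7.85 with GFP, 8.00 with ATPdead, 7.79 with WT and 7.78 with BRD with shLuc, and 11.78, 11.81, 8.63 and 8.15 with S2sh7. It fell by 3.41 there (adjusted p = 4.09e-06), against a difference of -0.14 with shLuc (adjusted p = 0.976). CCL20, another chemokine, read 3.61 to 4.18 with shLuc and fell by 4.10 with S2sh7, from 9.15 and 8.62 to 5.22 and 4.34. PTX3, a secreted pentraxin, read 2.67 to 2.95 with shLuc; it and CCL20 lay under log2 5 on these arrays, where a further fall could hardly be seen. BCL2A1, an anti-apoptotic member of the BCL2 family, read 6.10 to 6.63 with shLuc, and 10.15, 10.33, 7.16 and 6.31 with S2sh7. The atypical cadherin gene FAT4 read 4.26 to 4.46 with shLuc, also under log2 5, and fell by 2.53 with S2sh7.

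Over all genes changed at least 2-fold with S2sh7 the median shLuc differences were small. The 415 that rose had a median of 1.43 log2 there and 0.0067 with shLuc, where 217 (52.3%) had the same sign. The 276 that fell had a median of -1.25 there and -0.034 with shLuc, with 167 (60.5%) of the same sign. The shLuc median of all genes was itself below 0, at -0.014. The interaction was called for 405 (97.6%) and 271 (98.2%) of them, against 23.9% of all genes tested. The median level of the 415 genes was 8.60 in inactive and 8.56 in competent shLuc lines, and 6.52 and 8.21 in the S2sh7 lines. These sets were chosen from the S2sh7 arrays, which the shLuc values do not use. The interaction includes the S2sh7 difference that chose them, so its shares here follow largely from that choice.

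TNC had the largest shLuc difference among the 82 genes that rose at least 4-fold with S2sh7. This gene of the matrix protein tenascin-C read 4.03 with GFP, 4.66 with ATPdead, 5.12 with WT and 5.07 with BRD with shLuc (difference 0.75, SE 0.17, unadjusted p = 0.00239, adjusted p = 0.962). Both competent lines were above both inactive ones, near the filter level of 5. With S2sh7 it read 3.91, 3.86, 7.17 and 7.23 and rose by 3.32, and the interaction was 2.57 (adjusted p = 0.000359). Without the shLuc ATPdead array the shLuc difference was 1.06 and called (adjusted p = 0.0415), and without the shLuc GFP array it was 0.43 and not called (adjusted p = 0.93).

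The gene lists gave the same picture with SMARCA2 present. The 25 lists hold 839 genes, of which 705 were tested, and none of these was called with shLuc; 26 had an unadjusted p under 0.05, against 5.08% of all genes tested. Mitotic genes had the highest list median. Of 35 tested, 19 were higher in both competent lines than in both inactive ones and 1 was lower, with a median of 0.078 log2 and a range of -0.015 to 0.19, against -0.014 for all genes, of which 14.5% were higher and 23.3% lower in this way; 1 had an unadjusted p under 0.05. That gene was the cyclin CCNA2 (0.19, or 0.096 with the mean of all probe sets), which read 9.04 with GFP, 9.19 with ATPdead, 9.32 with WT and 9.29 with BRD. The mitotic kinase gene CDK1 read 10.96, 11.01, 11.11 and 11.12, and CCNB1 10.41, 10.54, 10.65 and 10.66. With S2sh7, 34 of the 35 rose (median 0.98) and the interaction was called, and positive, for 33. Of all genes tested, 17.8% rose and 20.9% fell with S2sh7, and 12% had a called positive interaction. In bulk RNA, a change in the share of cells in mitosis and a change in RNA per cell cannot be told apart. DNA replication genes had a median of -0.020 with shLuc, whereas 30 of 42 rose and 1 fell with S2sh7 (median 0.36). Their members MCM2, a helicase subunit, and CCNE1 differed by -0.08 and -0.10 with shLuc.

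NRF2 targets, which A549 cells are known to express at high levels, had a median of 0.0054 with shLuc over 37 genes, none with an unadjusted p under 0.05. With S2sh7, 21 rose and 6 fell (median 0.53). Genes typical of hepatocytes had 0.0058 over 29 genes with shLuc, against 16 higher and 1 lower with S2sh7 (median 0.69). Targets of YAP and TAZ, the Hippo pathway coactivators, had 0.016 over 25 genes, against 3 higher and 18 lower (median -0.48). CCN1, a YAP target, read 10.53, 10.33, 10.60 and 10.62 with shLuc in the order GFP, ATPdead, WT and BRD, with the competent lines barely above GFP. Of 24 cholesterol genes, 2 were higher and 5 lower without overlap with shLuc (median -0.040), and 16 rose and 3 fell with S2sh7 (median 0.30). Of all genes tested, 14.5% were higher and 23.3% lower without overlap with shLuc, and 17.8% rose and 20.9% fell with S2sh7.

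Some members of the immune and matrix lists differed more than their lists did. IFITM1, an interferon-induced membrane protein gene, read 6.88 with GFP, 6.43 with ATPdead, 7.12 with WT and 7.34 with BRD, a difference of 0.58 (SE 0.18, unadjusted p = 0.0126), while the list of 42 interferon genes had a median of -0.028. With S2sh7 it rose by 1.27. Of the 42 genes, 2 were higher and 1 lower with shLuc at an unadjusted p under 0.05. The lower one, HERC5, read 6.75, 6.79, 6.56 and 6.52, a difference of -0.23 (SE 0.072, unadjusted p = 0.0133). With S2sh7 HERC5 fell by 0.44. The chemokine gene CXCL1 read 9.49, 9.42, 9.78 and 9.91 with shLuc, a difference of 0.39 that was not called, and fell by 1.29 with S2sh7; the interaction was -1.68 (adjusted p = 0.00112). TNFAIP3, an inhibitor of NF-kB signalling, was at -0.26 with shLuc and fell by 0.29 with S2sh7. The matrix gene THBS1, thrombospondin, read 8.57, 8.58, 8.91 and 8.88 with shLuc, so that the lines within a class differed by no more than 0.028. The difference was 0.32 (SE 0.12, unadjusted p = 0.0234, adjusted p = 0.962). This SE also takes in the spread of the S2sh7 arrays, where THBS1 read 8.37 with GFP and 8.77 with ATPdead. With S2sh7 the difference was 0.33 (adjusted p = 0.0552). With the mean of all probe sets the shLuc difference of THBS1 was 0.12 and that of TNFAIP3 -0.019, and without the shLuc ATPdead array that of IFITM1 was 0.35.

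Other subunits of the complex moved little. Of 29 SWI/SNF genes tested, 5 were higher and 8 lower without overlap with shLuc (median -0.011), where 14.5% and 23.3% of all genes were, and 1 had an unadjusted p under 0.05. That was BCL11B, a zinc finger protein found with the complex, which read 6.40 with GFP, 6.18 with ATPdead, 5.93 with WT and 5.97 with BRD. With S2sh7 it read 4.78, 4.61, 5.97 and 5.99 and rose by 1.28 (interaction 1.63, adjusted p = 0.000173). All 4 competent lines thus read 5.93 to 5.99 for BCL11B, while the inactive lines lay above that level with shLuc and below it with S2sh7. In the lists of other chromatin remodelers and of Polycomb genes no member had an unadjusted p under 0.05, with medians of 0.0073 and -0.0069.

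**Figure D5:**
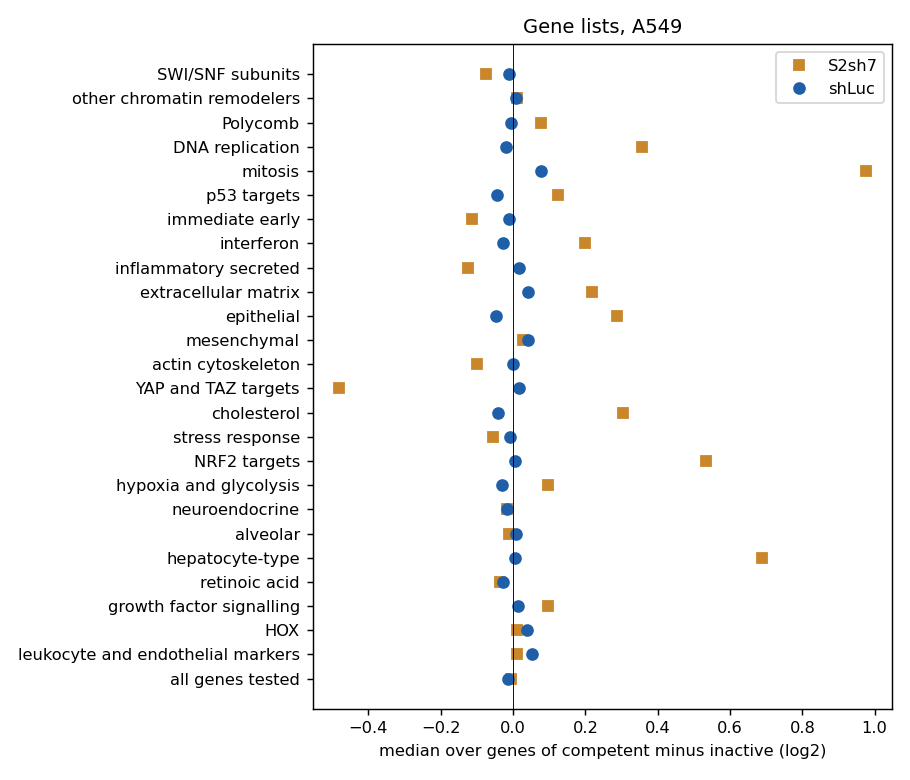
Median over the tested genes of each list, and over all genes, of the competent minus inactive difference (log2) with shLuc (blue circles) and with S2sh7 (orange squares). With shLuc the list medians stay between -0.047 and 0.078, and with S2sh7 they run from -0.48 to 0.98.

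The remaining lists had shLuc medians from -0.047 (39 epithelial genes) to 0.053 (10 leukocyte and endothelial markers). The epithelial keratin KRT8 was at -0.15 with shLuc and rose by 0.43 with S2sh7. Among 34 hypoxia and glycolysis genes 14 were lower and 4 higher without overlap (median -0.029); the hypoxia-induced peptide gene ADM read 11.46, 11.44, 11.30 and 11.28, and fell by 1.10 with S2sh7. Among 25 p53 targets 11 were lower and 3 higher without overlap (median -0.044), and none had an unadjusted p under 0.05. Over all genes 23.3% were lower and 14.5% higher without overlap.

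H1299, a human lung cancer line also known to lack SMARCA4, gave a like comparison with replicates: in its shLuc cells, 3 arrays each of WT, BRD, ATPdead and GFP, with cDNAs of SMARCA2 instead of SMARCA4. There 142 genes were called (0.966%), 85 higher and 57 lower with the competent cDNAs, and none reached 2-fold. The 95% intervals were narrower, with a median reach of 0.083 log2 to either side, so the counts of the 2 lines are not set against each other. The largest changes, in genes chosen after their values were seen, were rises of SPARC by 0.70 (SE 0.10, adjusted p = 0.0011) and of PODXL, a sialomucin gene, by 0.69 (SE 0.052, adjusted p = 5.35e-07). In the A549 shLuc lines these 2 genes differed by 0.17 and 0.10, neither called. THBS1 rose by 0.37 in H1299 (SE 0.053, adjusted p = 0.00112), where the A549 difference above was 0.32, or 0.12 with the mean of all probe sets. Of the 85 genes higher in H1299, 37 (43.5%) had the same sign in A549 with shLuc, and of the 57 lower ones 41 (71.9%), where the median of all genes was below 0.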

How the data were processed

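RNA was hybridised to Affymetrix U133 Plus 2.0 arrays. The values the authors deposited are intensity per probe set on a linear scale, from RMA per the submitters' processing notes, which give no version. The design had assumed log2 values, so log2 was taken, with no pseudocount. A single symbol was given for 41097 of 54675 probe sets (1801 had several, 11777 none), and 49 of these have a symbol absent from the GRCh38.p14 gene table. The brightest probe set over the 32 arrays stood for each of 19775 genes, and a gene was tested if at least 3 arrays exceeded log2 5 (14695 genes, 74.3%).

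The 8 A549 arrays were fitted in limma 3.58.1 (R 4.3.3) with 1 mean per class and hairpin (4 residual and 3.8 prior degrees of freedom, median residual SD 0.077 log2), and H1299 apart with 1 mean per group. Genes were called at Benjamini-Hochberg adjusted p under 0.05, and the number of arrays limits the precision. The fit was also run on simulated data, made of independent normal noise with added shifts. These data hold no differences between constructs or cultures, and no result here rests on them. Named were the SMARCA genes, the 16 genes described in the text, the 3 smallest p of each list, and the largest changes called with S2sh7 (8 per direction) or in the interaction (6 per direction), apart from those said to be chosen later. Members and lists were chosen with earlier results of these data known. Alternatives were other choices of probe set, filter, scaling, variance model and arrays, a 2-fold threshold and a block for the replicate in H1299 or the construct in A549. H1299 replicate numbers were not taken to pair samples: same-numbered arrays correlated from -0.29 to 0.28. Python 3.11.15 with matplotlib 3.10.9 drew the figures.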

Additional observations from a re-analysis of the deposited data

Results flagged for a closer look

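The competent minus inactive difference changed between A549 lines with SMARCA2 present and depleted for 3506 genes (23.9%), by the interaction term in limma. SMARCA4 RNA in the cDNA lines was also higher with S2sh7, by 0.87 log2 on the probe set that the cDNAs raised. The part of this in the interaction was not tested. The difference, S2sh7 minus shLuc, was 4.42 log2 for GPX2, 3.92 for INSL4, 3.89 for TM4SF4, 3.70 for FGL1, 3.66 for FXYD2 and 3.65 for APOH. With probe sets averaged it was 1.83 for FXYD2 and 1.92 for APOH. It was -4.26 for CCL20, -4.25 for COXFA4L3, -3.52 for PTX3, -3.44 for BCL2A1, -3.27 for CCL2 and -2.67 for FAT4. On the A549 arrays CCL20, PTX3 and FAT4 exceeded log2 5 only with S2sh7, so a fall with shLuc could hardly have been seen. On the shLuc arrays FXYD2, a regulator of the sodium pump, read 10.05 to 10.54, APOH, a plasma glycoprotein gene, 10.61 to 10.78, and COXFA4L3 4.71 to 5.28. Among the genes with the smallest p with shLuc, the difference was 1.00 for TNFAIP6 and 2.06 for EMP1 (0.86 and 0.50 with the mean of all probe sets). Both were chosen by their shLuc difference, which is part of this value. TNFAIP6 lay under log2 5 on the S2sh7 arrays, where little fall could have been seen.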

How the results depend on the processing

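With shLuc the count of called genes was 0 or 1 in each alternative. It was 1 (TNFAIP6) with the mean of all probe sets, with each array centred on its median and with a trended, robust variance, and from 0 to 1 when each array was left out (TNC, without the shLuc ATPdead array). In a fit on the 4 shLuc arrays alone 0 genes were called, with 916 at an unadjusted p under 0.05 and a smallest adjusted p of 0.677. SMARCA4 changed sign with its probe sets, from -0.04 to 0.19 with their mean and to 1.07 with the probe set that is brightest in A549, the one raised by the cDNAs; neither was called. With each probe set tested on its own 10112 were called with S2sh7 and 5906 in the interaction, and with a 2-fold threshold 691 and 637. Leaving out each array gave 4370 to 5559 genes with S2sh7 and 2167 to 3171 in the interaction; the lone array left in a class was assumed to vary like the others. In H1299 the replicate block gave 130 genes against 142. In A549 each construct has an array under both hairpins; pairing them, with construct as a block and 2 residual degrees of freedom, gave 3205 genes in the interaction, an alternative chosen after seeing the data. Of 546 values of single genes with shLuc under the alternatives 540 kept their sign and side of the threshold, 4 passed it and 2 changed sign; all 264 interaction values kept theirs, though the mean of all probe sets made 3 of them smaller by over 1.5 times (FXYD2, APOH and EMP1). With 1 array per line, differences between classes, constructs and single cultures cannot be told apart, and readings under log2 5 are near background.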
